A study of Sus scrofa with 3 samples.

Results

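A set of 10 genes of the hepatic response to foreign compounds was looked up in RNA-Seq values of pig liver: the receptors NR1I2, NR1I3 and AHR, the cytochrome P450 genes CYP1A1, CYP2B22, CYP3A22, CYP3A29, CYP3A39 and CYP3A46, and the P450 reductase gene POR. Features were matched to these genes by symbol alone. Of these 10 genes, 9 were matched among the 34579 features of the deposited tables, of which 22945 were mRNA, and NR1I3 was not analysed here. All 9 exceeded the minimum level used here, a value of at least 1 FPKM in every library. FPKM stands for fragments counted per kilobase of transcript, here divided by a factor for each library that is given below. The animals were male Chinese Wuzhishan miniature pigs, given as 6 to 7 months old. In the study's methods this is their age when obtained, before acclimation, surgery and several weeks on the experimental diet. The livers therefore came from older pigs. Intact males (IM), castrated males (CM) and castrated males given testosterone (CMT) were compared, and all 3 groups were fed a diet rich in fat and cholesterol (HFC), made with lard, egg yolk powder, cholesterol and sodium cholate. Castration was surgical, the intact males had a sham operation, and CMT pigs received testosterone propionate by weekly intramuscular injection from the day of castration. No pigs on an ordinary diet are among the samples, so the groups differ in testicular status and testosterone within the HFC diet. Each group was 1 library made from pooled liver RNA, of 3 pigs according to the labels, and the study's methods give more pigs per group than that.

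NR1I2 (the pregnane X receptor, PXR) and NR1I3 (the constitutive androstane receptor, CAR) are nuclear receptors that bind drugs, bile acids and steroids as partners of the retinoid X receptors, and they induce the CYP3A and CYP2B genes in hepatocytes. AHR, the aryl hydrocarbon receptor, pairs with ARNT and induces the CYP1A genes. P450 enzymes oxidise drugs, steroids and fatty acids in the endoplasmic reticulum and receive their electrons from the reductase encoded by POR. CYP3A enzymes also hydroxylate testosterone and bile acids.

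The deposited values gave 32197633 reads in the intact, 36126736 in the castrated and 25419904 in the testosterone-treated library once reads had been recovered from the steps between values. For a transcript of 1 kb, 1 FPKM corresponded to 2.51 reads (IM), 3.42 (CM) and 2.04 (CMT), so the divisor of the values was not the number of recovered reads, and values are compared as deposited. With 1 library per group there is no replicate check of any difference and no p-value. The 95% intervals given below are exact binomial (Clopper-Pearson) intervals on the recovered reads of 2 libraries. They cover counting error only and say nothing about variation between pigs. A gene was called when its FPKM differed by at least 1.5-fold. All 12 hepatocyte marker genes were above 0 in each library, at a summed FPKM of 1100654 in IM, against 799222 in CM and 893874 in CMT. ALB makes up much of this sum, as it held 7.97% (IM), 6.57% (CM) and 5.18% (CMT) of all FPKM. No matched marker of any cell type listed was at 0 in any library. The median log2 ratio of the hepatocyte genes was -0.49 with CM over IM, 0.38 with CMT over CM and -0.038 with CMT over IM. The medians of all mRNA features past the minimum were -0.020, 0.013 and -0.0072. Genes of red blood cells, of which 3 of 5 were matched, summed to 17237 FPKM in the intact, 3416 in the castrated and 5183 in the testosterone-treated library. The 7 genes of T and NK cells summed to 465, 621 and 343, and 7 of 8 macrophage genes to 16178, 16032 and 17523. Endothelial genes, 6 of 7 matched, summed to 3566, 2929 and 3322, the 7 stellate cell and fibroblast genes to 1403, 1499 and 1242, 3 of 5 cholangiocyte genes to 44.4, 76.3 and 49.0, and 4 of 5 B and plasma cell genes to 37.2, 47.3 and 37.7. Scaling to the recovered reads instead of using FPKM as deposited moved the median of all mRNA features to 0.26 with CM over IM and to -0.23 with CMT over CM. The part of these cell type differences in the results below was not tested, and in pooled tissue fewer cells of a type and less RNA per cell cannot be told apart.

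To ask what castration changed, CM was compared with IM. CYP1A1 was 2.97-fold higher in CM, AHR was 3.14-fold lower and CYP3A46 was 4.10-fold lower, while NR1I2, CYP2B22, CYP3A22, CYP3A29, CYP3A39 and POR differed by less than 1.5-fold. Thus 3 of 9 genes (33.3%) were called, 1 higher and 2 lower, against 23.2% of the 15613 mRNA features past the minimum, of which 11.1% were higher and 12.1% lower. The median log2 ratio of the 9 genes was -0.16. Of all mRNA features, 1737 were higher and 1884 lower in CM as deposited, and 3432 were higher and 1003 lower after scaling to the recovered reads, which left the 3 calls among the 9 genes and their directions as they were.

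To ask what testosterone changed in castrated pigs, CMT was compared with CM. AHR was 4.76-fold, CYP3A46 3.75-fold and CYP3A29 2.11-fold higher in CMT. CYP1A1 was 37.4-fold lower, CYP2B22 2.72-fold lower and CYP3A22 2.41-fold lower. These 6 of 9 genes (66.7%) compare with 25.7% of all mRNA features past the minimum, 12.1% higher and 13.5% lower. The 9 genes had 3 higher, 3 lower and a median log2 ratio of -0.38. Of all mRNA features, 1896 were higher and 2110 lower as deposited, and 1065 higher and 3497 lower after scaling to the recovered reads, where NR1I2 and CYP3A39 were also called, both lower. The 9 genes include 4 CYP3A paralogs and are not independent of each other.

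Between CMT and IM, which addresses whether replacement returned a gene to its intact level, 6 of 9 genes were called, 2 higher and 4 lower, against 16.8% of the mRNA features, with 6.67% higher and 10.1% lower. Over the 9 genes the median log2 ratio was -0.23. AHR and CYP3A29 were higher in CMT, by 1.52-fold and 1.84-fold. CYP1A1, CYP2B22, CYP3A22 and CYP3A39 were lower in CMT, by 12.6-fold, 2.58-fold, 2.14-fold and 1.65-fold. CYP3A46, NR1I2 and POR lay within 1.5-fold of IM. At a 2-fold threshold CYP1A1, CYP2B22 and CYP3A22 were called, 3 of 9 genes, against 6.14% of the mRNA features. Any 2 of these comparisons share a library, and their values are therefore given side by side and not correlated.

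**Figure D1:**
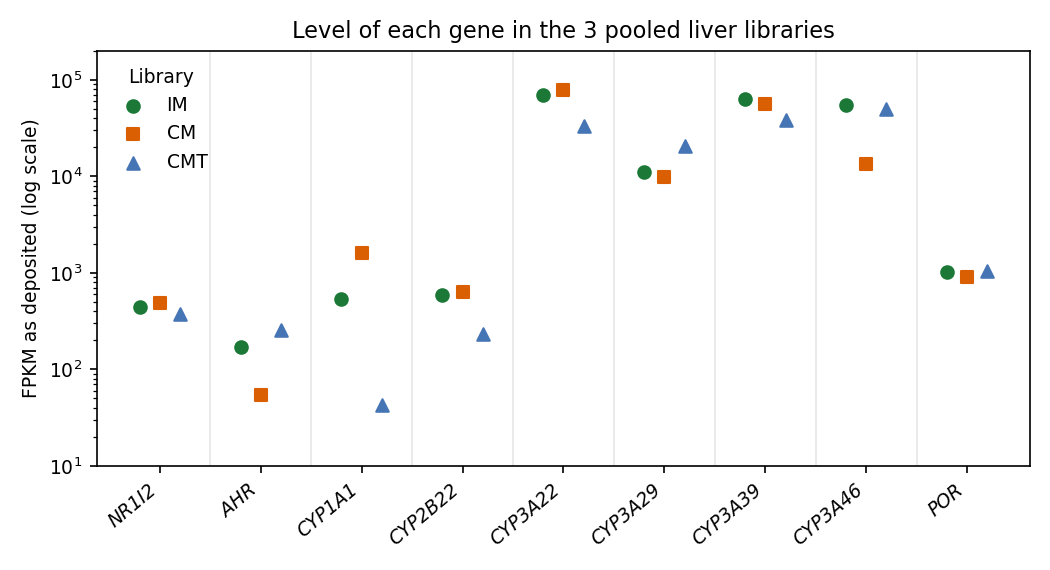
FPKM of the 9 genes (horizontal axis) on a log scale (vertical axis), with 1 point for each pooled library: circles for IM, squares for CM and triangles for CMT. The CYP3A genes lie between 9748 and 79169 FPKM, CYP1A1 spans 42.5 to 1591, and the 3 points of POR nearly coincide at 915 to 1046.

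Of the receptors, NR1I2 varied least. Its FPKM was 443 (IM), 491 (CM) and 378 (CMT), from 3249, 4903 and 2252 recovered reads. The ratio of CM to IM was 1.11 (1.06 to 1.16), and the level in CMT was 1.30-fold (1.24 to 1.37) below CM and 1.17-fold (1.11 to 1.24) below IM. All 3 differences exceeded counting error and none reached 1.5-fold as deposited. When the libraries were scaled to their summed FPKM or to their recovered reads, the log2 ratio of CMT to CM moved from -0.38 to -0.62 in either case, past 1.5-fold.

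AHR was at 168 FPKM in IM, against 53.6 in CM and 255 in CMT. The lowest value was therefore in CM, and the highest in CMT. The fold between CM and IM was 3.14 (2.98 to 3.31), with 230 of the 15613 mRNA features lower still on this ratio. Testosterone-treated pigs exceeded untreated castrated pigs 4.76-fold (4.53 to 5.01), and only 93 features had a larger ratio. CMT exceeded IM 1.52-fold (1.46 to 1.58), which is close to the threshold, and scaling to the upper quartile moved the log2 ratio from 0.60 to 0.54 and ended that call. The length recovered for AHR was 11472 bases, where its reads were 4846, 2103 and 5974. If this length is too high by a common factor, the intervals of AHR are too narrow. In IM, NR1I2 exceeded AHR 2.63-fold in FPKM, and this became 9.16-fold in CM and 1.48-fold in CMT.

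CYP1A1, the classical target of AHR, had the widest span of the 9 genes. Its FPKM was 536 in the intact, 1591 in the castrated and 42.5 in the testosterone-treated library, so the libraries were ordered opposite to AHR, with CM highest and CMT lowest. These values rested on 1925, 7783 and 124 recovered reads. CM exceeded IM 2.97-fold (2.82 to 3.12). CMT was 37.4-fold (31.4 to 45.1) below CM, where 11 of the 15613 mRNA features were lower on this ratio, and 12.6-fold (10.5 to 15.3) below IM. In rank among mRNA features, CYP1A1 went from 1444 in IM to 530 in CM and 8273 in CMT. CYP1A2 lies beside CYP1A1 on chromosome 7 in the RefSeq gene table of assembly Sscrofa11.1, a newer build than that used by the authors. It had an FPKM of 3502 (IM), 5294 (CM) and 101 (CMT), the same order as CYP1A1. Its level was 1.51-fold (1.47 to 1.55) higher in CM than in IM, and 52.5-fold lower in CMT than in CM. Since paralogs can share reads, the pair was also summed, giving 4038 FPKM in IM, against 6885 in CM and 143 in CMT, a fold of 48.0 between CM and CMT.

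**Figure D2:**
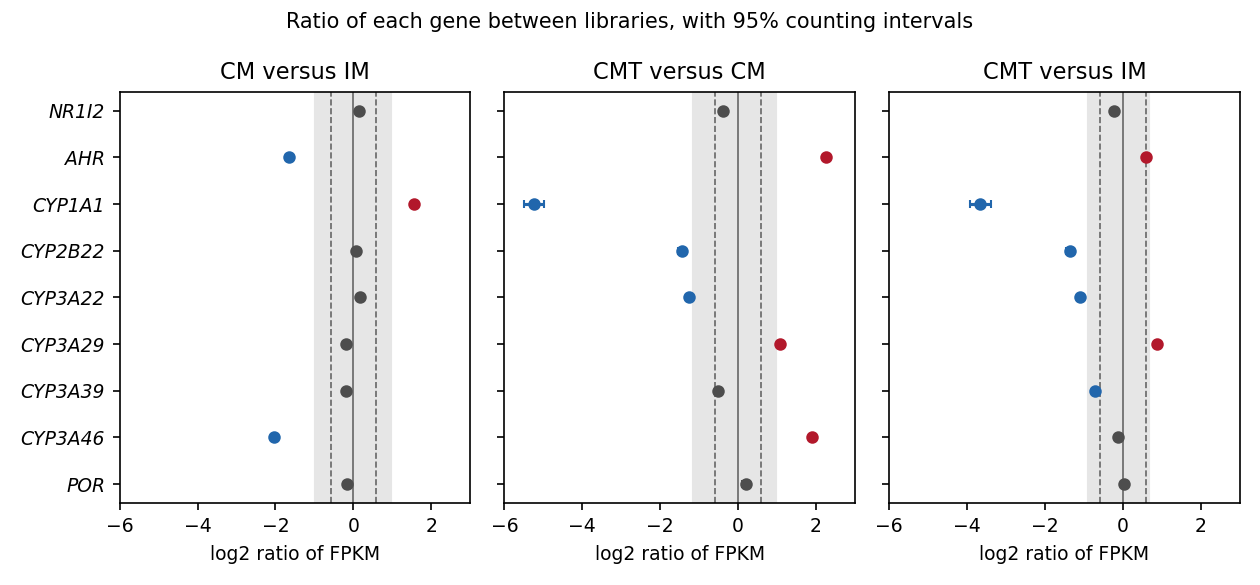
Log2 ratio of FPKM (horizontal axis) for each of the 9 genes in 3 panels, 1 for each comparison. Points are coloured red when higher and blue when lower by at least 1.5-fold (dashed lines), bars are 95% counting intervals, mostly narrower than the points, and the grey band holds the 5th to 95th percentile of the 15613 mRNA features; CYP1A1 reaches -5.23 in CMT versus CM while POR stays near 0 in every panel.

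CYP2B22, the pig CYP2B gene and a typical target of NR1I3, stood apart in CMT alone. The values were 595 FPKM in the intact, 629 in the castrated and 231 in the testosterone-treated library. IM and CM were within 1.06-fold (1.01 to 1.10) of each other. CMT was 2.72-fold (2.54 to 2.91) below CM and 2.58-fold (2.40 to 2.76) below IM. The library of castrated pigs given testosterone was thus the low one, and castration alone went with no difference of 1.5-fold.

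CYP3A enzymes oxidise a wide range of drugs and steroids. In the RefSeq table of Sscrofa11.1, CYP3A22, CYP3A46 and CYP3A29 follow each other on chromosome 3, which also carries POR. CYP3A39 is not a gene of its own in that table but a synonym of CYP3A46. The deposited tables list 4 separate CYP3A features, and how reads were divided between such close copies is not stated, so each value below is uncertain to that extent. The lengths recovered for CYP3A29, CYP3A39 and CYP3A46 were short, at 268, 299 and 347 bases. If a common factor was lost from them, their reads are too few and their intervals too wide.

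CYP3A22 had an FPKM of 70322 (IM), 79169 (CM) and 32845 (CMT). Its rank was 12, 8 and 38 among the mRNA features, whose highest in every library was ALB. CM exceeded IM only 1.13-fold (1.12 to 1.13), but CMT was 2.41-fold (2.39 to 2.43) below CM and 2.14-fold (2.12 to 2.16) below IM. The order of the libraries was that of CYP2B22, with CM and IM close and CMT low.

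CYP3A39 was at 63852 FPKM in IM, against 55757 in CM and 38665 in CMT. IM exceeded CM 1.15-fold (1.13 to 1.16), a direction that scaling to summed FPKM turned, from a log2 ratio of -0.20 to 0.061. CMT was 1.44-fold (1.42 to 1.46) below CM and 1.65-fold (1.63 to 1.68) below IM. The log2 ratio of CMT to CM, -0.53 as deposited, passed 1.5-fold under 3 of the 4 other scalings, at -0.66 to -0.78.

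CYP3A46 had the largest castration difference of the CYP3A genes. Its FPKM was 54595.5 in the intact, 13314 in the castrated and 49895.5 in the testosterone-treated library, so that CM alone was low. The fold between IM and CM was 4.10 (4.03 to 4.18), and 124 of the 15613 mRNA features had a lower ratio. CMT exceeded CM 3.75-fold (3.68 to 3.82) and was within 1.09-fold (1.08 to 1.11) of IM. Summed with CYP3A39, a choice made after seeing the data because of the shared name, the levels were 118447, 69071 and 88560 FPKM. For this sum the fold between IM and CM was 1.71 as deposited, past the threshold. Scaling to summed FPKM or to recovered reads shifts log2 ratios of CM to IM by 0.26 and 0.28. Either shift takes this sum, at a log2 ratio of -0.78, below 1.5-fold. The fold between CMT and CM was 1.28, no longer past the threshold. Between IM and CMT the sum differed 1.34-fold, below the threshold that CYP3A39 alone passed. With CYP3A22 added as well, the folds were 1.27 between IM and CM, 1.22 between CM and CMT and 1.55 between IM and CMT, and the last of these passed the threshold.

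CYP3A29 was the least abundant of the 4 in each library. Its FPKM was 11185 (IM), 9748 (CM) and 20544 (CMT), with CMT high and the others close. CMT exceeded CM 2.11-fold (2.05 to 2.17) and IM 1.84-fold (1.78 to 1.89). IM exceeded CM 1.15-fold (1.11 to 1.18), again with the other direction, a log2 ratio of 0.059, after scaling to summed FPKM. CYP3A29 thus differed in direction from CYP3A22 in both comparisons with CMT, and the FPKM of CYP3A22 was 6.29-fold that of CYP3A29 in IM, against 8.12-fold in CM and 1.60-fold in CMT.

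Together the 4 CYP3A genes held 199954 FPKM in the intact, 157988 in the castrated and 141949 in the testosterone-treated library. These sums were 2.31%, 2.18% and 1.65% of all FPKM in the library. The log2 ratio of the sum was -0.34 between CM and IM, -0.15 between CMT and CM and -0.49 between CMT and IM, and none reached 1.5-fold. With the 4 features taken separately, the makeup of the sum differed more than its size. The shares of CYP3A39 and CYP3A46 depend on how reads were divided between them. Joined, these 2 features held 118447 (IM), 69071 (CM) and 88560 (CMT) FPKM. CYP3A22 was 35.2% of the sum of all 4 (IM), 50.1% (CM) and 23.1% (CMT). CYP3A46 was 27.3% in IM, against 8.43% in CM and 35.2% in CMT, where it was the largest of the 4 features. CYP3A29 accounted for 5.59%, 6.17% and 14.5%, and CYP3A39 for 31.9%, 35.3% and 27.2%. Without CYP3A22, the most abundant of the 4 in IM and CM, the log2 ratio of CMT to CM was 0.47 in place of -0.15. That of CM to IM was -0.72, past 1.5-fold as deposited but not after scaling to summed FPKM or to recovered reads.

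**Figure D3:**
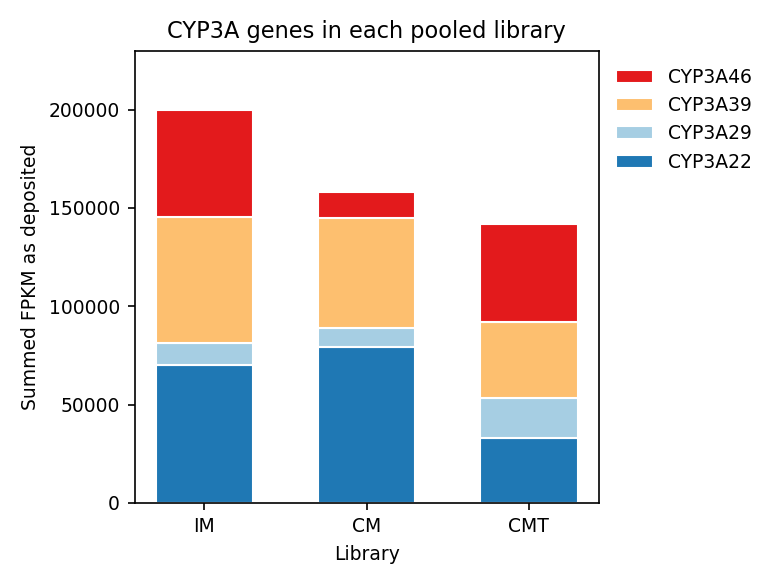
Summed FPKM (vertical axis, from 0) of the 4 CYP3A genes in each pooled library, with the contribution of each gene as a coloured segment. The CYP3A46 segment is thin in CM, where it is 8.43% of the sum, and the CYP3A22 segment is shorter in CMT, at 23.1% of the sum, than in IM or CM.

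POR, which supplies electrons to all microsomal P450 enzymes, was at 1020 FPKM in the intact, 915 in the castrated and 1046 in the testosterone-treated library. CM was 1.12-fold (1.06 to 1.18) below IM, and CMT was 1.14-fold (1.08 to 1.21) above CM. CMT and IM were not distinguishable by counting error, with a ratio of 1.03 (0.966 to 1.09). Scaling to summed FPKM turned the log2 ratio of CM to IM from -0.16 to 0.099 and that of CMT to CM from 0.19 to -0.054, so no direction is read from either. The summed CYP3A was 196 times the FPKM of POR in IM, 173 times in CM and 136 times in CMT.

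Genes that act with the receptors and the P450 enzymes were taken as lists, some of which share genes, written with earlier results of these data known. Among the receptor partners, 12 of 19 listed genes were matched and 11 passed the minimum. None of the 11 was called in CM versus IM or in CMT versus CM, beside 23.2% and 25.7% of all mRNA features. The medians of the 11 were 0.096 and 0.0015. In CMT versus IM 1 was called, beside 16.8% of all mRNA features. It was the chaperone HSP90AA1, which holds AHR in the cytoplasm and was 1.59-fold (1.51 to 1.67) higher in CMT. ARNT, the partner of AHR, was at 249 FPKM (IM), 169 (CM) and 186 (CMT), a fold of 1.48 (1.35 to 1.61) between IM and CM that stayed below the threshold. HNF4A, a hepatocyte nuclear receptor needed for CYP3A expression, was at 896, 830 and 1114 FPKM, and RXRB, a retinoid X receptor, at 67.4, 72.0 and 62.2. RXRG was listed at 0.848, 0.311 and 0 FPKM, from 4, 2 and 0 reads, where no fold is given.

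Of 7 other listed AHR target genes, 5 were matched and 4 passed the minimum, among them CYP1A2, described above. The median log2 ratio of the 4 was 0.23 between CM and IM and -1.85 between CMT and CM. NQO1, a quinone reductase that NRF2 also induces, was at 47.5 FPKM in IM, against 604 in CM and 39.9 in CMT. It was 12.7-fold (10.4 to 15.7) higher in CM than in IM and 15.1-fold lower in CMT than in CM. UGT1A6, a glucuronosyltransferase, was at 278.1 FPKM in the intact, 155 in the castrated and 278.0 in the testosterone-treated library, lowest in CM. TIPARP, an AHR-induced repressor of AHR, was at 104, 94.3 and 110 FPKM and was not called. ALDH3A1, an aldehyde dehydrogenase, was below the minimum, at 0.756, 2.22 and 0.465 FPKM. The targets therefore did not share a direction, and the counts rest on 4 genes. Castration went with higher levels of 2 and a lower level of 1, beside 11.1% and 12.1% of all mRNA features. Testosterone treatment went with a higher level of 1 and lower levels of 2, beside 12.1% and 13.5%.

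Of 25 other listed target genes of NR1I2 and NR1I3, 22 were matched and 21 were mRNA features past the minimum. In CM versus IM, 4 were higher and 8 lower, with a median log2 ratio of -0.26, beside 11.1% higher and 12.1% lower among all mRNA features and their median of -0.020. In CMT versus CM, 10 were higher and 5 lower, with a median of 0.40, beside 12.1% and 13.5% of all mRNA features. In CMT versus IM 4 were higher and 4 lower, with a median of 0.019, beside 6.67% and 10.1%. CYP2A19, which metabolises skatole, was 7.07-fold (6.88 to 7.27) higher in CM than in IM, at 1046 FPKM (IM), 7399 (CM) and 2313 (CMT). GSTA4, a glutathione transferase, was at 149, 271 and 325 FPKM, and CES2, a carboxylesterase, at 12.2, 22.0 and 13.0. The lowest ratios of CM to IM in the list were those of CYP2C36, at 21594 FPKM in IM, against 138 in CM and 39447 in CMT, and CYP2C33, at 42997, 8849 and 30883. ALAS1, the rate-limiting enzyme of heme synthesis, is not of the mRNA type in the tables and so not in these counts. It was 3.45-fold (3.23 to 3.68) lower in CM than in IM, at 1522 FPKM in the intact, 442 in the castrated and 711 in the testosterone-treated library.

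P450 enzymes need heme and electrons from other gene products, which were taken as 2 further lists. Among 9 heme genes past the minimum, 2 were called in CM versus IM, both lower, beside 23.2% of all mRNA features called in either direction. In CMT versus CM 4 were called, all higher, beside 25.7%, and between CMT and IM none was called, beside 16.8%. The medians of the 9 were -0.22, 0.41 and 0.077. ALAS1 also belongs to this list and is again not in the count. BLVRA and BLVRB, the biliverdin reductases, were 1.87-fold (1.77 to 1.98) and 1.76-fold (1.68 to 1.84) lower in CM than in IM. UROS, an enzyme of heme synthesis, was at 271, 288 and 340 FPKM. Among 6 redox partners and P450-binding proteins, the 1 gene called was PGRMC2, a heme-binding membrane protein, in all 3 comparisons, beside the same shares. It was at 246 FPKM (IM), 148 (CM) and 420 (CMT). The medians of the 6 were -0.31, 0.42 and 0.054. CYB5A, the cytochrome b5 that assists CYP3A, was at 9759, 9013 and 11058 FPKM and stayed within 1.5-fold in all 3 comparisons.

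Among the 12 other P450 features of families 1 to 3, 11 were mRNA past the minimum, of which CM had 3 at higher and 6 at lower levels than IM, with a median log2 ratio of -0.72, again beside 11.1% and 12.1% of all mRNA features. CMT had 6 at higher and 4 at lower levels than CM, with a median of 0.64, beside 12.1% and 13.5%. Relative to IM, CMT had 2 at higher and 2 at lower levels, with a median of 0.12, beside 6.67% and 10.1%. CYP2E1, an ethanol-inducible P450, was at 3148 FPKM in IM, against 14546 in CM and 54.4 in CMT. Its order of libraries was that of CYP1A1 and CYP1A2. CYP2C91, whose feature is not of the mRNA type, was at 21.6, 38.8 and 27.8 FPKM and CYP2C42 at 85.9, 25.3 and 93.3.

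For likeness, each log2 level was centred on its mean over the 3 libraries and the genes of the lists and the 9 genes were ranked by Euclidean distance. Nearest to CYP2B22 was CYP3A22, at a distance of 0.19, followed by PAPSS2 at 0.37 and SULT2A1 at 0.41, both genes of sulfonation. NR1I2 lay nearest to the coactivator NCOA1, at 0.11, and to RXRB, at 0.12. POR lay nearest to CYB5B, at 0.025, and to TIPARP, at 0.027. The summed CYP3A lay nearest to NCOA3, at 0.21. No other features were candidates, so a related function of a nearest gene can follow from how the lists were made. Each distance rests on 3 values and is a description only.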

How the data were processed

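Liver RNA was poly-A selected and sequenced as paired-end libraries on an Illumina instrument, with 1 pooled library each for IM, CM and CMT. According to the submitters' processing notes and the study's methods, reads were checked with FastQC and aligned with TopHat to the pig genome Sscrofa10.2. The authors deposited 1 FPKM value per feature and library, and the counting program and annotation are not given in the sources used here.

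Here, ratios of deposited FPKM were taken without a pseudocount. Genes were called at 1.5-fold with FPKM of at least 1 in all 3 libraries, the fold and level that the study's methods also used, but without the false discovery rate criterion they added. Reads were recovered for 23090 of 24277 features above 0 (95.1%), as the smallest transcript length up to 10000 bases that made the reads whole in all 3 libraries, within 1e-06 reads or a share of 1e-09. Lengths up to 20000 bases were allowed for a gene named in the text. A common factor can be lost, which widens an interval, or added, which narrows it. The lengths recovered for 9 of 13 mitochondrial genes were within 2 bases of the annotation. An FPKM of 0 means 0 counted reads. Up to 3 expected reads were allowed for behind such a value, or 1.20 FPKM in IM, 0.877 in CM and 1.47 in CMT on 1 kb. The computation was tested on simulated data. The RefSeq gene table of Sscrofa11.1 was used for names and neighbours only.

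Members, lists and tests were chosen with earlier results of these data known. Text names come from the 10 genes, any gene of the lists of receptor partners, AHR targets and redox partners, and, from the other lists, the 3 genes with the highest and the 3 with the lowest ratio of CM to IM among those with FPKM of at least 10 in all libraries. The nearest genes by likeness could come from any list, and the zonation genes of the closing section were chosen after their values were seen. Alternatives were a 2-fold threshold, a pseudocount of 1, 4 scalings, other filters on low values, an interval criterion and the CYP3A sum without its most abundant gene. Python 3.11.15, numpy 2.4.6, pandas 2.3.3, scipy 1.17.1 and matplotlib 3.10.9 were used.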

Additional observations from a re-analysis of the deposited data

How the results depend on the processing

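No paired analysis was possible because each group had 1 pooled library, and for the same reason no library could be left out. Of 75 values recomputed for called genes under the pseudocount and scalings, 75 kept their sign and 74 stayed past 1.5-fold, the exception being AHR in CMT versus IM under the upper quartile (0.54, against 0.60), whose cause was not tested. Of 60 values for genes not called, 5 passed 1.5-fold (NR1I2 and CYP3A39, CMT versus CM) and 9 changed sign, to between -0.054 and 0.12 (CYP3A29, CYP3A39 and POR). Summing CYP3A39 and CYP3A46, chosen after seeing the data, gave -0.78, 0.36 and -0.42 in the 3 comparisons as deposited. The summing ended the call of CYP3A46 in CMT versus CM (1.91 alone) and of CYP3A39 in CMT versus IM (-0.72 alone). Scaling to summed FPKM or to recovered reads takes the -0.78 of CM versus IM below 1.5-fold. Adding CYP3A22 to that sum gave -0.35, -0.29 and -0.64, of which the value for CMT versus CM has the other sign than CYP3A46 alone. With a 2-fold threshold, 3 of 9 genes were called in CMT versus IM in place of 6, against 6.14% of mRNA features. Scaling moved the log2 ratio of the summed CYP3A. For CM versus IM it was -0.32 by the median ratio, -0.27 by the upper quartile, -0.083 by summed FPKM and -0.060 by recovered reads, against -0.34 as deposited. For CMT versus CM these were -0.17, -0.28, -0.40 and -0.39, against -0.15, and for CMT versus IM the last 3 were -0.56, -0.48 and -0.45, against -0.49. Without CYP3A22 the sum gave -0.72, 0.47 and -0.25 in the 3 comparisons as deposited. Pooling limits every value: the spread between pigs is unknown.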

Other observations

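CYP1A2, CYP2E1 and other P450 genes are expressed mainly around the central vein of the liver lobule, so genes of that zone and of the periportal zone were tabulated. Both lists were chosen after the data had been seen, and nothing is tested on them. The 9 perivenous genes matched include CYP1A2 and CYP2E1 themselves, both called higher in CM than in IM and lower in CMT than in CM or IM. AXIN2, also among them, rested on only 13, 31 and 7 recovered reads. Of the 9, CM had 4 at higher and 2 at lower levels than IM, beside 11.1% and 12.1% of all mRNA features. CMT had 2 at higher and 4 at lower levels than CM, beside 12.1% and 13.5%. The median log2 ratios were 0.14 and -0.38. In CMT versus IM, 0 were higher and 5 lower, with a median of -0.59, beside 6.67% and 10.1% of all mRNA features. GLUL, the glutamine synthetase of the cells next to the central vein, was at 1789 FPKM in IM, 3677 in CM and 974 in CMT. SLC1A2, a glutamate transporter of the same cells, was at 123, 6.33 and 88.5 FPKM, lowest where GLUL was highest, and OAT, the ornithine aminotransferase, was at 1300.2, 405 and 688.

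Of 10 periportal genes, CM had 1 at a higher and 3 at lower levels than IM, beside 11.1% and 12.1% of all mRNA features. CMT had 3 at higher levels and 1 at a lower level than CM, beside 12.1% and 13.5%. SDS, the serine dehydratase, was at 12000.3 FPKM in IM, 424 in CM and 4697 in CMT. PCK1, the cytosolic enzyme that commits carbon to gluconeogenesis, was at 15266, 6514 and 11000 FPKM, and HAL, the histidine ammonia lyase, at 315, 118 and 151. These were the 3 lower in CM. HSD17B13, a lipid droplet protein, was the one higher in CM, at 4557, 8138 and 525 FPKM. The urea cycle genes ASS1, at 10438, 9309 and 8638 FPKM, CPS1, at 3664, 3618 and 3172, and ARG1, at 2332, 1878 and 1932, differed by less than 1.5-fold. In CMT versus IM, 0 of the 10 genes were higher and 3 lower, beside 6.67% and 10.1% of all mRNA features. The median log2 ratio of the 10 was -0.27.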
